A study of Mus musculus with 6 samples.

Results

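The 6 genes described here encode ion-handling proteins of the heart cell membrane: the L-type calcium channel pore Cacna1c and its beta subunit Cacnb2, the T-type calcium channel pores Cacna1g and Cacna1h, the pacemaker channel Hcn2 and the sodium-calcium exchanger Slc8a1. They are 6 of 18193 genes measured, and no voltage-gated sodium channel gene is among them. They were taken by name from the probe sets annotated to a single gene, with the probe set of highest mean over all 6 arrays standing for each gene. The study profiled cells isolated from C57BL/6J mouse hearts on one-colour Affymetrix arrays, 2 per group. Adult cardiomyocytes came from 8 weeks old males by Langendorff perfusion. Neonatal cardiomyocytes and neonatal cardiac fibroblasts came from hearts at postnatal day 1, from both sexes, by dissociation and Percoll separation. Adult and neonatal cells therefore differ in age, sex and isolation together, and these cannot be told apart. No transgene or drug treatment is named for any group, and trypsin with collagenase was used on all cells. Fibroblasts were set apart by growth on a dish, with a mitochondrial dye (TMRM) used to look for remaining cardiomyocytes. Nothing in the labels tells whether both arrays of a group are from different hearts or litters, so the p-values reflect array-to-array spread alone, possibly technical.

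In a cardiomyocyte, the action potential opens L-type calcium channels. The calcium that enters triggers release of more calcium from the sarcoplasmic reticulum, and the cell contracts. The sodium-calcium exchanger then carries calcium back out in return for sodium. T-type channels open at more negative voltages and are known from the embryonic heart and the conduction system, and HCN channels carry the pacemaker current that drives slow depolarisation between beats. Beta subunits bring the L-type pore to the membrane and tune its gating.

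Group membership followed the source name and the cell type field. For replicate 1 of each neonatal group the title says the opposite cell type, so defining markers were examined before the channels. The 12 cardiomyocyte markers, which include cardiac troponins and myosins, had a median log2 level of 13.91 and 13.89 on the adult cardiomyocyte arrays, 13.89 and 13.54 on the neonatal cardiomyocyte arrays, and 7.52 and 10.78 on the fibroblast arrays (replicates 1 and 2). The 12 fibroblast markers had medians of 7.80 and 9.40, 9.38 and 9.43, and 12.56 and 11.86 on the same arrays. Each group thus carried the markers of its source name, and the title of each disputed array names a cell type that its markers oppose. Fibroblast replicate 2 also carried cardiomyocyte transcripts well above replicate 1, and its 12 leukocyte markers had a median of 8.83 against 11.56 on replicate 1. The 7 atrial markers had medians of 8.01 and 11.99 on the adult arrays, 12.46 and 12.97 on the neonatal cardiomyocyte arrays, and 7.71 and 8.55 on the fibroblast arrays. Adult and neonatal cardiomyocytes thus also differed in atrial transcripts, mostly through adult replicate 1. The part of atrial cells in the differences between the ages was not tested. Every group difference below rests on these arrays, and the closing section says how calls and directions change without the disputed pair or with the groups of the titles. In cells isolated in bulk, fewer cells of a type and less RNA per cell cannot be told apart.

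**Figure D1:**
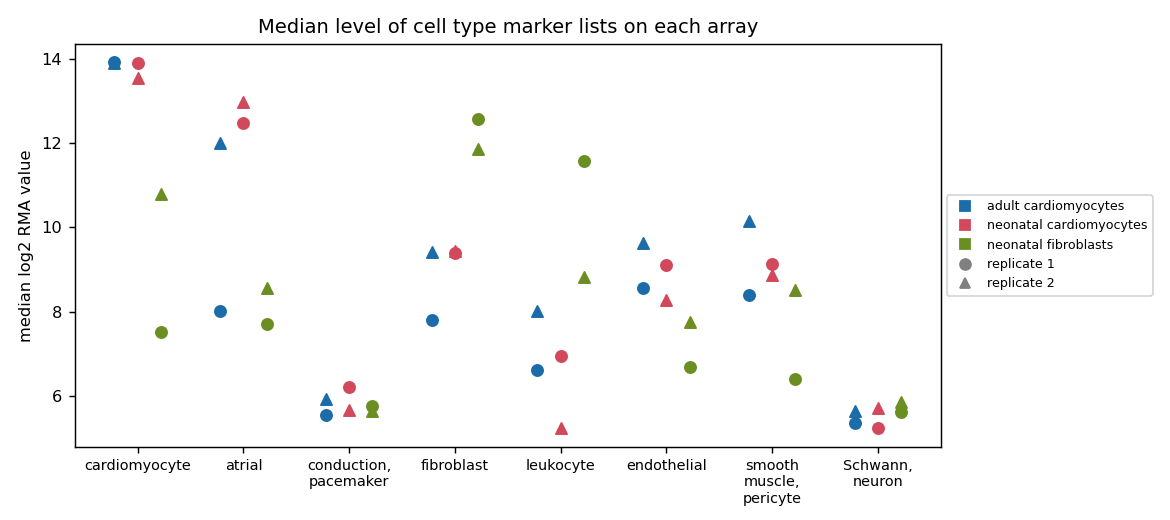
Median log2 RMA value of each cell type marker list (vertical axis) on each of the 6 arrays, with lists along the horizontal axis, groups by colour and replicates by symbol. Cardiomyocyte markers sit near 13.9 on the adult arrays and at 7.52 and 10.78 on the fibroblast arrays, and fibroblast and leukocyte markers are highest on the fibroblast arrays.

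Values are log2 RMA values, where a difference of 1 is a doubling, and a gene was called when its limma p-value, after Benjamini-Hochberg adjustment across the 18193 genes, was under 0.05. Levels of different probe sets are not set against each other, because probes differ in brightness.

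The exchanger Slc8a1 (probe set 1437675_at) had its highest level in neonatal cardiomyocytes. It measured 8.70 and 8.72 on the adult cardiomyocyte arrays, 11.04 and 10.99 on the neonatal cardiomyocyte arrays, and 6.08 and 8.13 on the fibroblast arrays. The cardiomyocyte replicates lay almost on top of each other, the 3 groups did not overlap, and the fibroblast arrays differed more between themselves for this gene than for 98.0% of all genes. Adult cells had 4.95-fold less Slc8a1 than neonatal cardiomyocytes, a log2 difference of −2.31 ± 0.66 (SE, 95% interval −3.98 to −0.64), which did not pass over all genes (limma adjusted p = 0.136). The difference was −2.34 within replicate 1 and −2.27 within replicate 2. The shared spread of the fit includes the wide fibroblast pair. With the 4 cardiomyocyte arrays alone, or without either fibroblast array, the same difference had a limma adjusted p of 0.0433. Neonatal cardiomyocytes were 15.0-fold above fibroblasts (3.91 ± 0.66, SE, limma adjusted p = 0.0725), by 4.96 within replicate 1 and 2.86 within replicate 2. Without fibroblast replicate 2 that difference was 4.93 and passed (adjusted p = 0.0103). Adult cardiomyocytes were 1.60 above fibroblasts (interval −0.07 to 3.27, adjusted p = 0.147), 2.63 above without fibroblast replicate 2 (adjusted p = 0.0151) and 0.57 above without fibroblast replicate 1 (adjusted p = 0.178).

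The 4 probe sets of Slc8a1 did not all say the same. A second one, 1425817_a_at, had 7.68 and 6.92 on the adult arrays, 9.74 and 7.75 on the neonatal cardiomyocyte arrays, and 5.33 and 5.69 on the fibroblast arrays, the same order of groups as the first. A dimmer one, 1440201_at, had 3.78 and 4.64 in adult cardiomyocytes, 6.47 and 6.05 in neonatal cardiomyocytes, and 5.72 and 6.74 in fibroblasts. On that probe set the adult cells were the low group, by 2.02 log2 units below fibroblasts, and the neonatal cell types overlapped. The dimmest, 1420210_at, stayed between 4.01 and 5.01 on all arrays. The adult mean was below the neonatal cardiomyocyte mean on all 4 probe sets, with differences between −2.31 and −0.38 log2 units.

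The L-type channel genes were high in cardiomyocytes of both ages. Cacna1c (1421297_a_at), the pore-forming alpha subunit through which the trigger calcium enters, measured 10.77 and 10.18 in adult cardiomyocytes, 10.43 and 8.98 in neonatal cardiomyocytes, and 5.79 and 7.01 in fibroblasts. All 4 cardiomyocyte arrays lay above both fibroblast arrays, while adult and neonatal arrays overlapped. Cacna1c rose 16.9-fold in adult cardiomyocytes against fibroblasts (4.08 ± 0.64, SE, limma adjusted p = 0.0160), a call that ended without adult replicate 1, adult replicate 2 or fibroblast replicate 1 (adjusted p of 0.111, 0.0764 and 0.0668). Neonatal cardiomyocytes were 9.91-fold above fibroblasts (3.31, interval 1.69 to 4.92, adjusted p = 0.0887). That gap was 4.64 within replicate 1 and 1.97 within replicate 2. Between the ages the difference was 0.77, with an interval of −0.85 to 2.38 that includes 0 (adjusted p = 0.497). It was 1.49 without neonatal cardiomyocyte replicate 1 (adjusted p = 0.250) and 0.044 without replicate 2 (adjusted p = 0.980). The other Cacna1c probe set gave −0.23 for adult minus neonatal cells, so the probe sets differ in the sign of the age difference, while both placed cardiomyocytes of either age at least 3.04 log2 units above fibroblasts.

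Cacnb2 (1456401_at), the beta subunit that cardiac L-type channels carry, was the only one of the 6 genes called between the neonatal cell types. Its log2 levels were 10.16 and 9.47 in adult cardiomyocytes, 9.94 and 10.37 in neonatal cardiomyocytes, and 5.29 and 6.48 in fibroblasts. Cardiomyocytes of both ages overlapped each other and stood apart from fibroblasts. Cacnb2 rose 19.3-fold in neonatal cardiomyocytes against fibroblasts (4.27 ± 0.47, SE, limma adjusted p = 0.0433), by 4.66 within replicate 1 and 3.89 within replicate 2. This call lies close to the threshold, in a comparison whose smallest adjusted p over all genes was 0.0424. There 149 of all 18193 genes were called, and 0 with the replicate number as a block. With the replicate number as a block the adjusted p was 0.0595, and without adult replicate 1 or 2, neonatal cardiomyocyte replicate 1 or 2, or fibroblast replicate 1 it was 0.158, 0.158, 0.167, 0.0591 and 0.0989. Cacnb2 rose 15.2-fold in adult cardiomyocytes against fibroblasts (3.93 ± 0.47, SE, adjusted p = 0.00998), with 0.0802 and 0.0560 when adult replicate 1 or 2 was left out. Adult minus neonatal cardiomyocytes came to −0.34 (interval −1.55 to 0.86, adjusted p = 0.683). Its other probe set gave differences of −0.40, 4.32 and 3.92 for adult minus neonatal cardiomyocytes, neonatal cardiomyocytes minus fibroblasts and adult cardiomyocytes minus fibroblasts, all with the sign of the first.

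**Figure D2:**
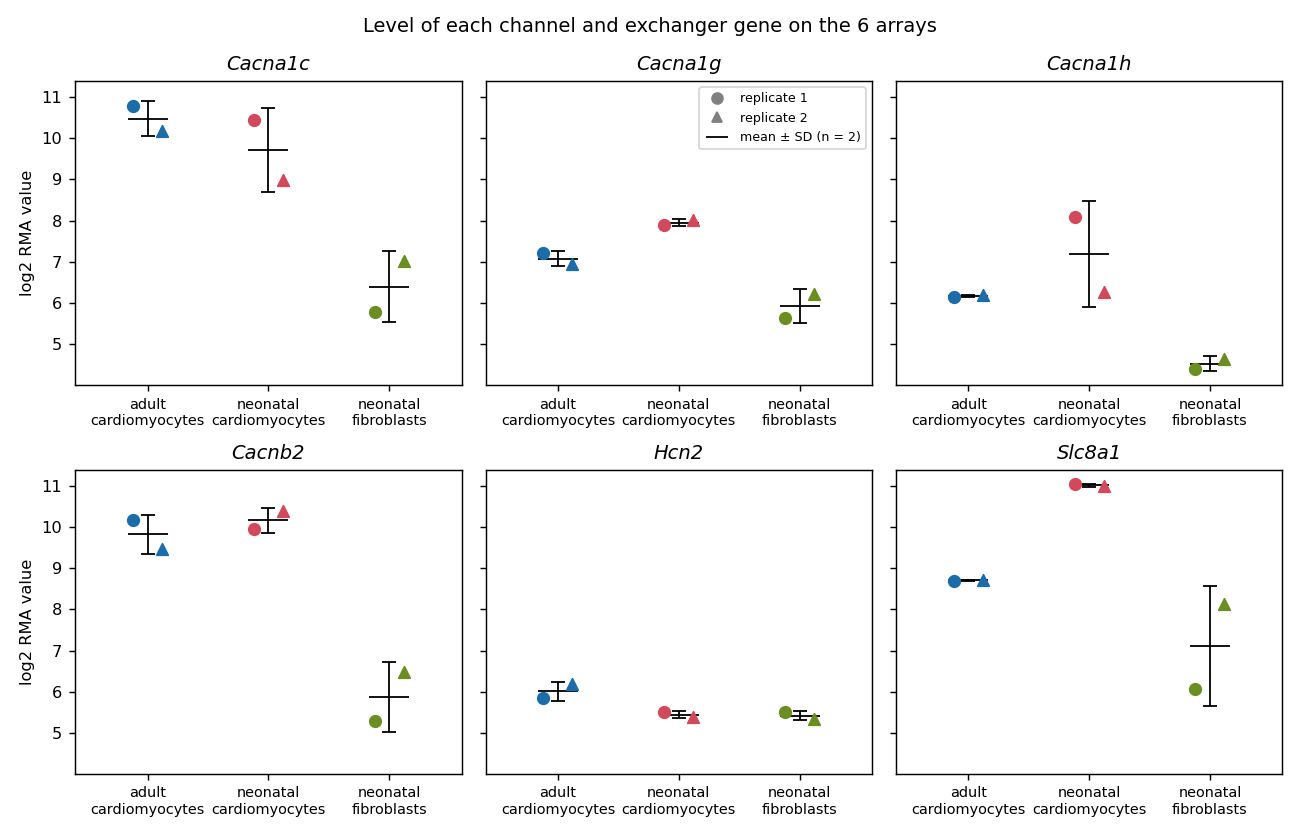
Log2 RMA value (vertical axis, the same range in every panel) of the 6 genes in adult cardiomyocytes, neonatal cardiomyocytes and neonatal fibroblasts, with both replicates as points and the mean ± SD (n = 2) as bars. Slc8a1 sits near 11.0 in neonatal cardiomyocytes, above both other groups, and Cacnb2 and Cacna1c are lower in fibroblasts than in cardiomyocytes of either age.

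Both T-type pore genes had their highest mean in neonatal cardiomyocytes. Cacna1g (1423365_at), which encodes Cav3.1, measured 7.21 and 6.95 in adult cardiomyocytes, 7.89 and 8.02 in neonatal cardiomyocytes, and 5.63 and 6.23 in fibroblasts. The 3 groups did not overlap. Cacna1g rose 2.22-fold in adult cardiomyocytes against fibroblasts (1.15 ± 0.26, SE, limma adjusted p = 0.0361). The call ended without any of 5 arrays, with adjusted p of 0.175 and 0.105 without adult replicate 1 or 2, 0.0556 without either neonatal cardiomyocyte array and 0.116 without fibroblast replicate 1. Neonatal cardiomyocytes were 4.07-fold above fibroblasts (2.03 ± 0.26, SE, adjusted p = 0.0512), just outside the threshold, and inside it without fibroblast replicate 2 (adjusted p = 0.0369). The adult cells were 1.83-fold below the neonatal cardiomyocytes, a difference of −0.87 (interval −1.53 to −0.22, adjusted p = 0.142) that was −0.68 within replicate 1 and −1.07 within replicate 2. Cacna1g has a single probe set here, so no second one could be compared.

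Cacna1h (1422710_a_at), which encodes Cav3.2, measured 6.15 and 6.19 in adult cardiomyocytes, 8.09 and 6.28 in neonatal cardiomyocytes, and 4.40 and 4.66 in fibroblasts. Neonatal replicate 1 alone was high, and neonatal replicate 2 lay 0.09 above the adult array of the same number. The gap between the neonatal cardiomyocyte arrays, 1.81, exceeded that of 96.8% of genes. Adult minus neonatal cardiomyocytes was −1.01 ± 0.59 (SE, adjusted p = 0.356), and the fit gave 2.65 for neonatal cardiomyocytes minus fibroblasts (6.29-fold, adjusted p = 0.114) and 1.64 for adult cardiomyocytes minus fibroblasts (3.12-fold, adjusted p = 0.112). Without neonatal cardiomyocyte replicate 2 the difference between the neonatal cell types was 3.56 and passed (adjusted p = 0.0351), and without replicate 1 it was 1.75 (adjusted p = 0.167). The difference between the ages was −1.92 without neonatal cardiomyocyte replicate 2 (adjusted p = 0.0737) and −0.11 without replicate 1 (adjusted p = 0.815). Without either neonatal cardiomyocyte array, which narrows the shared spread, the adult difference from fibroblasts passed at the same size (adjusted p = 0.0131). The other Cacna1h probe set, 1427607_at, stayed between 3.80 and 4.25 on all 6 arrays and showed none of these differences, with 3 arrays at the identical value of 3.89.

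Hcn2 (1421154_at), one of the pore genes of the pacemaker current, was the only one of the 6 whose neonatal cardiomyocyte and fibroblast arrays overlapped. It measured 5.85 and 6.18 in adult cardiomyocytes, 5.50 and 5.39 in neonatal cardiomyocytes, and 5.50 and 5.34 in fibroblasts. The adult arrays lay above the other 4, and replicate 1 of the neonatal cell types had exactly the same value. The mean of Hcn2 over the 6 arrays, 5.63, exceeded that of 36.4% of genes. These are modest levels without a detection call, and Hcn2 has a single probe set here. Adult cardiomyocytes were 1.48-fold above neonatal ones (0.57 ± 0.19, SE, interval 0.07 to 1.06, limma adjusted p = 0.178) and 1.51-fold above fibroblasts (0.59, adjusted p = 0.0907). For neonatal cardiomyocytes minus fibroblasts the estimate was 0.03, with a 95% interval of −0.47 to 0.52. Hcn3, its closest measured relative, differed by 0.11 between the ages (adjusted p = 0.695). The 36 measured relatives of the 6 genes had a median age difference of 0.40, against 0.09 over all genes, with 33 adult means higher and 3 lower. A small adult excess was thus not particular to Hcn2. Markers of conduction and pacemaker cells (8 genes) had medians of 5.54 and 5.93 on the adult arrays, 6.22 and 5.67 on the neonatal cardiomyocyte arrays, and 5.76 and 5.64 on the fibroblast arrays.

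**Figure D3:**
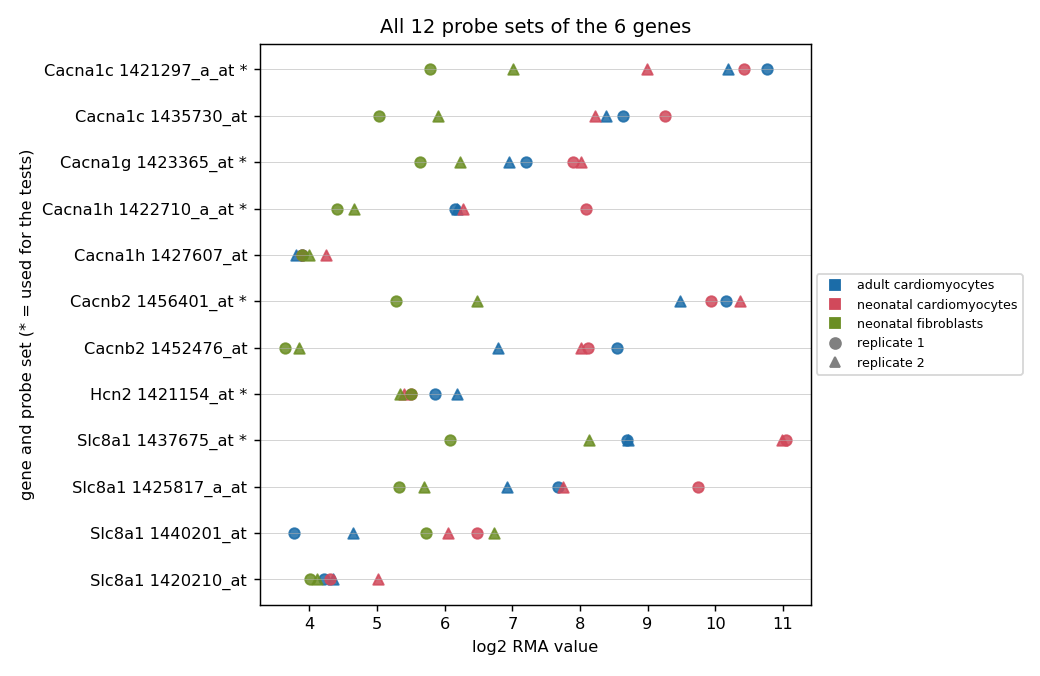
Log2 RMA value (horizontal axis) of all 12 probe sets of the 6 genes (vertical axis) on each array, with groups by colour, replicates by symbol and an asterisk on the probe set used for each gene. The Cacna1h probe set 1427607_at stays between 3.80 and 4.25, and the Slc8a1 probe set 1440201_at is lowest in adult cardiomyocytes, unlike the probe sets used.

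Counted as a set, the 6 genes had calls in both comparisons with fibroblasts and none in limma between the ages. Between neonatal cardiomyocytes and fibroblasts 1 of 6 rose, against 0.676% of all genes called higher and 0.143% called lower, and 5 were higher at unadjusted p under 0.05, against 8.95% of genes. All 6 means were higher in cardiomyocytes, against 47.4% of genes, with a median difference of 2.98 against −0.02 over all genes. For 5 of the 6 both neonatal cardiomyocyte arrays lay above both fibroblast arrays, as did those of 22.3% of all genes. Between adult cardiomyocytes and fibroblasts 3 of 6 rose, against 10.1% of all genes, with a median of 1.62 against 0.09, and all 6 had adult arrays above the fibroblast arrays, against 37.8%. Between adult and neonatal cardiomyocytes limma called 0 of 6, against 2.30% of all genes, and 1 was higher and 2 lower at unadjusted p under 0.05, against 11.1% and 11.7% of genes. There Slc8a1, Cacna1g and Cacna1h had both adult arrays below both neonatal ones (background 23.8%) and Hcn2 had them above (background 33.9%). The 3 comparisons share arrays and are not independent of each other. The 6 genes were chosen by name with earlier results of these data known, so these counts describe the set and do not test it. Where these genes were lower on the fibroblast arrays, replicate 1 was the lower array for the 5 other than Hcn2, and it was also the array with the lower cardiomyocyte marker median; the part of remaining cardiomyocytes in the levels of fibroblast replicate 2 was not tested.

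**Figure D4:**
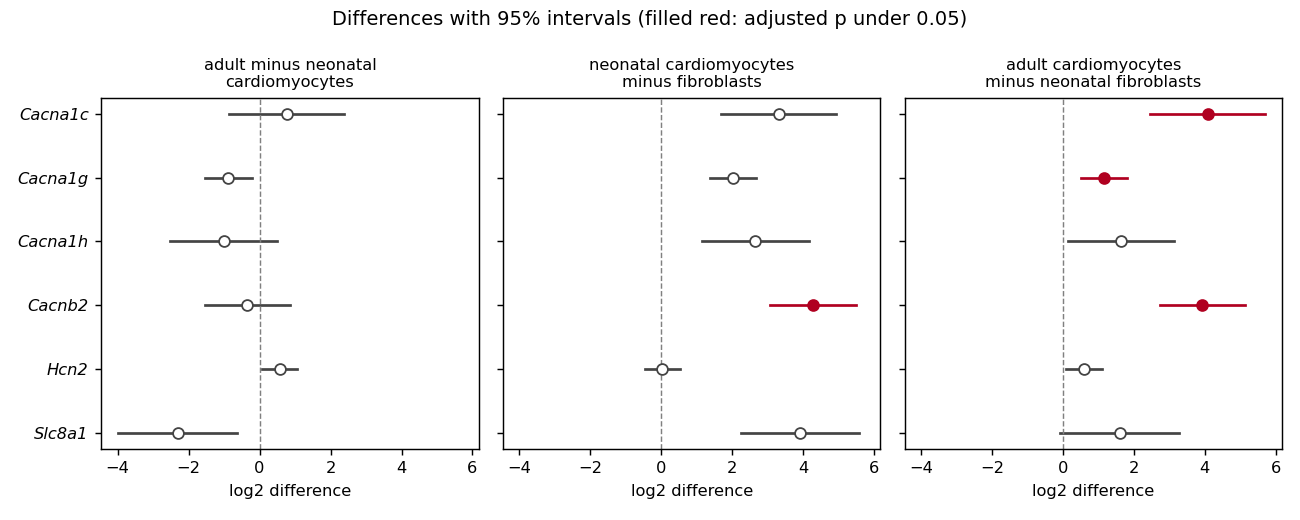
Log2 difference (horizontal axis) of each gene (vertical axis) in the 3 comparisons, with bars for the limma 95% intervals and filled red points for genes with an adjusted p under 0.05. Cacnb2 is called in both comparisons with fibroblasts, Cacna1c and Cacna1g in that of adult cardiomyocytes, and no gene between adult and neonatal cardiomyocytes.

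Promoter sequence was available for 4 of the genes, from RefSeq on GRCm38.p6, as 300 bases from 250 before to 50 after an annotated start. Those of the exchanger, which differed most between the ages, of Cacnb2, which was called between the neonatal cell types, and of Hcn2, which was not, are shown. Capitals mark matches to motifs of cardiac regulators searched on both strands: AGATAA for GATA factors, CATTCC for TEAD factors, CTA and TAG 4 bases apart for MEF2 factors (the MEF2 core), and the CArG box of serum response factor by its name.
Slc8a1, chr17:81738338-81738637, minus strand: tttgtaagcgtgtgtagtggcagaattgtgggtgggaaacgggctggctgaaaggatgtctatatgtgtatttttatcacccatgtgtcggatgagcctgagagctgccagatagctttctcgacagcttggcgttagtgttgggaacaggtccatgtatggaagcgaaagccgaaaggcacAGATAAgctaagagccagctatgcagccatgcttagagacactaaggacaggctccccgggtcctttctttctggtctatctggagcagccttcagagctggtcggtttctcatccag
Cacnb2, chr2:14604056-14604355, plus strand: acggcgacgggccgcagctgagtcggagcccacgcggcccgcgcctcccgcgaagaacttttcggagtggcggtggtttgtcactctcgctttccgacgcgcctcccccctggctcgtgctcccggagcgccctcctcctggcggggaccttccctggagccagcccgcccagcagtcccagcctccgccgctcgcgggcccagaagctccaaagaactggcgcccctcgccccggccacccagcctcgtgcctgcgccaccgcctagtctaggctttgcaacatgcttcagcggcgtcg
Cacnb2, chr2:14823842-14824141, plus strand: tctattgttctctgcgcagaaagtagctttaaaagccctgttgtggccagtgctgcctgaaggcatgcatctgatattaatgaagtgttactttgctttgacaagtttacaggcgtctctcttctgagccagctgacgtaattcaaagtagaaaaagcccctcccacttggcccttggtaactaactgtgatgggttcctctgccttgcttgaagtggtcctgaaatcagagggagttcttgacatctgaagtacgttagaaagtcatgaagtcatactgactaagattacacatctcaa
Hcn2, chr10:79716384-79716683, plus strand: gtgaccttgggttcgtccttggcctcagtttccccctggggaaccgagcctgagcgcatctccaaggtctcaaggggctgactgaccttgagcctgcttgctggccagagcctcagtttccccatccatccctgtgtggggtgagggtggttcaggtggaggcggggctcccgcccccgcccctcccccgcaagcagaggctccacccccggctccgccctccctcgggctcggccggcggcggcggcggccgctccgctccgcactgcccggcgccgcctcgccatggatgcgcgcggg
The only match in these windows was an AGATAA in the Slc8a1 sequence, starting at position −68 from the annotated start, and 11.2% of all 32851 promoters of this length hold one. CATTCC was found in 14.7% of promoters, the MEF2 core in 3.69% and the CArG box in 1.63%. The Cacnb2 starts differ in composition, at 71.7% and 44.0% G and C, and the Hcn2 window has 72.3%, against a median of 52.7% over all promoters. The 3 annotated Cacna1c starts, with 51.3%, 81.3% and 51.3% G and C, held none of the 4 motifs. The arrays do not tell which start a transcript came from, and a match or its absence says nothing about binding.

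Of 43 further genes of the same families, 36 were measured, and the others were not analysed here. Between adult and neonatal cardiomyocytes 2 rose and 0 fell in limma, against 1.08% and 1.22% of all genes. At unadjusted p under 0.05, 10 were higher and 2 lower, against 11.1% and 11.7% of all genes. Scn4b, an auxiliary beta subunit of sodium channels, measured 7.63 and 8.14 in adult cardiomyocytes against 4.44 and 4.36 in neonatal cardiomyocytes, and 4.26 and 4.20 in fibroblasts. It rose 11.2-fold in adult against neonatal cardiomyocytes (3.49 ± 0.22, SE, adjusted p = 0.0166). Cacna1s, the L-type pore of skeletal muscle, rose 3.26-fold (1.70 ± 0.26, SE, adjusted p = 0.0485), with 6.06 and 5.50 in adult cells against 4.26 and 3.89 in neonatal cardiomyocytes. With any single array left out fewer of the 36 were called, and fewer of all genes as well, so this loss was not particular to the list. With the replicate block 3 rose, with Cacna2d1 added (1.24, adjusted p = 0.0458). The block called 607 of all 18193 genes, against 418 in the main fit. Over the list 33 of 36 adult means were higher, against 57.4% of all genes, with a median of 0.40 against 0.09 for all genes. Among the 18 list genes with a mean of at least 5, 17 adult means were higher, against 47.8% of all genes at or above that mean. Apart from Cacna2d1, these 18 lay in the lower part of that range, so the shares are not matched for level. Among the 18 with a mean under 5 it was 16, near the 82.4% of all genes that dim.

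Between neonatal cardiomyocytes and fibroblasts 0 of the 36 were called in limma, where 0.676% of all genes were called higher and 0.143% lower. At unadjusted p under 0.05, 3 were higher and 1 lower, against 8.95% and 7.31% of all genes. The median was −0.05, against 2.98 for the 6 genes, with 16 means higher and 20 lower. The list had a median level of 4.63 to 4.93 on the neonatal arrays, so many relatives had low levels in both cell types. Cacna2d1 and Cacna2d2 differed by 1.72 and 2.20, with both cardiomyocyte arrays above both fibroblast arrays. Between adult cardiomyocytes and fibroblasts 3 rose (Scn4b, Cacna1s and Cacna2d1) and 1 fell (Slc8b1), against 10.1% and 11.0% of all genes. Fewer relatives were called when an adult or a fibroblast array was left out, and fewer of all genes as well. Cacna2d1, the alpha-2-delta subunit that accompanies L-type pores, and Slc8b1, the sodium-calcium exchanger of mitochondria, are named here after their values were seen. Cacna2d1 measured 10.88 and 11.24 in adult cardiomyocytes, 9.68 and 9.96 in neonatal cardiomyocytes, and 7.83 and 8.36 in fibroblasts, and rose 7.77-fold in adult cells against fibroblasts (adjusted p = 0.00712). Slc8b1 measured 6.11 and 6.46 in adult cardiomyocytes, 5.84 and 6.32 in neonatal cardiomyocytes, and 7.41 and 7.16 in fibroblasts. It fell 1.99-fold in adult cardiomyocytes against fibroblasts (adjusted p = 0.0497), a call at the threshold. The adjusted p was 0.0750 with quantile normalization, 0.0571 with median centring, 0.0605 with an intensity trend and 0.0619 with all probe sets fitted.

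**Figure D5:**
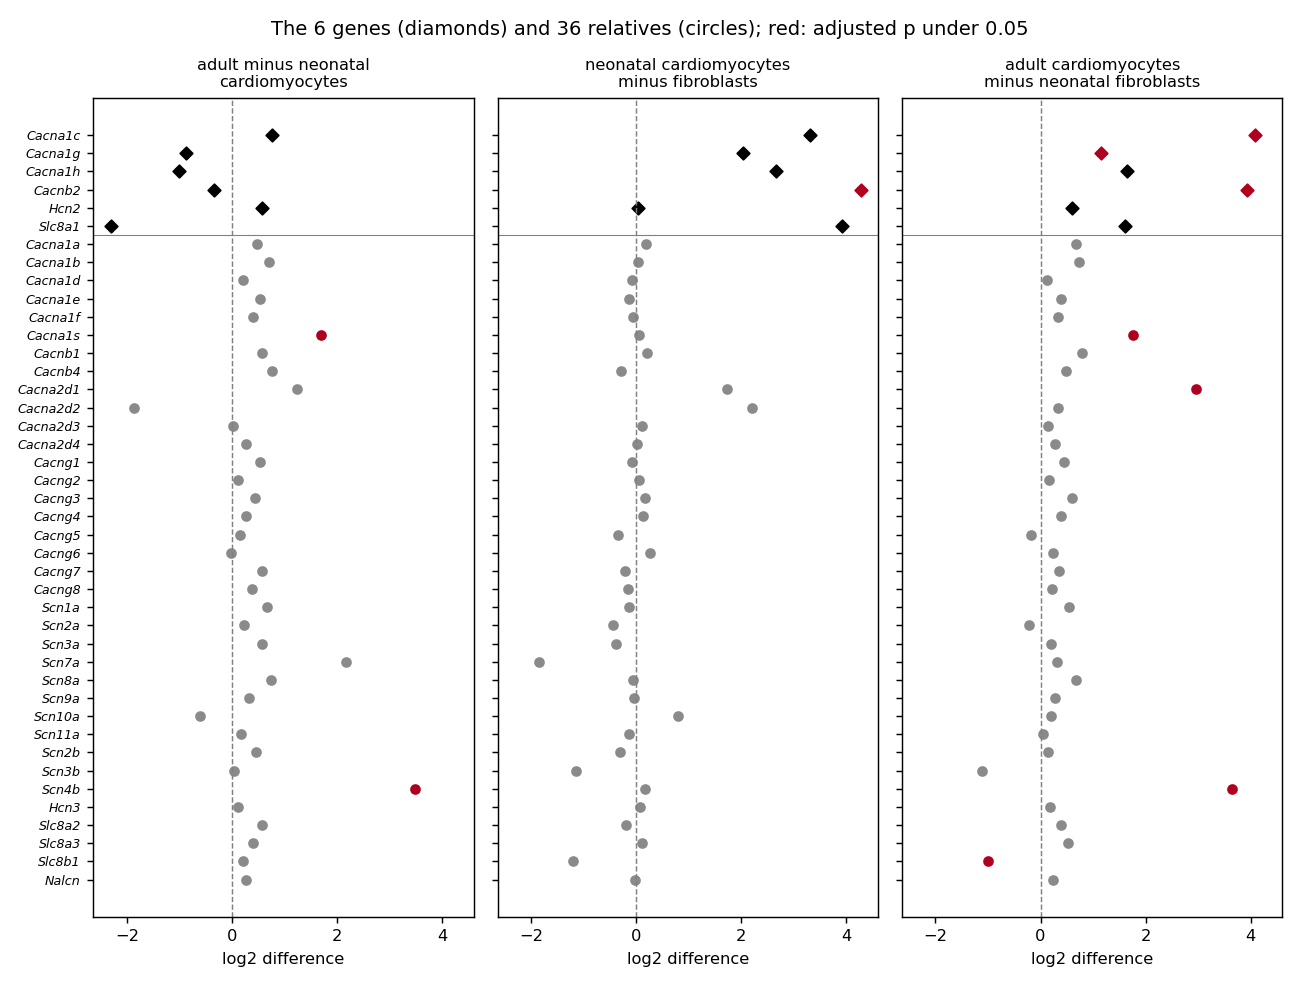
Log2 difference (horizontal axis) of the 6 genes (diamonds) and their 36 measured relatives (circles) in the 3 comparisons, with genes called at adjusted p under 0.05 in red. Most relatives lie within 1 log2 unit of 0 between the neonatal cell types, where the 5 calcium genes of the 6 lie at 2.03 to 4.27. Relatives further out there include Cacna2d2 at 2.20, Cacna2d1 at 1.72 and Scn7a at −1.85.

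Proteins that act on these channels or receive their calcium were read from the same fit. Of 24 measured channel modulators, 0 were called between the ages, where 1.08% of all genes rose and 1.22% fell. At unadjusted p under 0.05, 3 were higher and 3 lower there, against 11.1% and 11.7% of all genes. Between the neonatal cell types 0 were called, where 0.676% of all genes rose and 0.143% fell. Unadjusted, 10 were higher and 0 lower there, against 8.95% and 7.31% of all genes. In adult cardiomyocytes against fibroblasts 7 rose, where 10.1% of all genes rose. Rrad, a small GTP-binding protein that restrains L-type channels through the beta subunit, measured 12.44 and 12.63 in adult cardiomyocytes, 10.15 and 10.83 in neonatal cardiomyocytes, and 6.25 and 7.85 in fibroblasts. It rose 44.9-fold in adult cells against fibroblasts (adjusted p = 0.00822), and was 2.04 log2 units above neonatal cardiomyocytes (adjusted p = 0.131), where its target subunit Cacnb2 differed by −0.34. Fxyd1, which encodes phospholemman, rose 30.7-fold in adult cells against fibroblasts (adjusted p = 0.0191), with 6.25 and 8.88 on the fibroblast arrays.

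Of 14 genes of the sarcoplasmic reticulum, 1 rose and 1 fell in adult against neonatal cardiomyocytes, against 1.08% and 1.22% of all genes. In neonatal cardiomyocytes against fibroblasts 2 rose, against 0.676% of all genes. In adult cardiomyocytes against fibroblasts 9 rose and 1 fell, against 10.1% and 11.0% of all genes. Hrc, a histidine-rich calcium-binding protein of the store, measured 12.08 and 12.05 in adult cardiomyocytes, 9.50 and 8.42 in neonatal cardiomyocytes, and 5.69 and 5.93 in fibroblasts. It rose 8.60-fold in adult against neonatal cardiomyocytes (adjusted p = 0.0332) and 8.91-fold in neonatal cardiomyocytes against fibroblasts (adjusted p = 0.0459). Casq1, the calcium-buffering calsequestrin known from skeletal muscle, had 7.25 and 6.71 in adult cardiomyocytes, 10.56 and 11.08 in neonatal cardiomyocytes, and 5.42 and 6.71 in fibroblasts. It fell 14.4-fold in adult against neonatal cardiomyocytes (adjusted p = 0.0346), and like Slc8a1 it had its highest level in the neonatal cells. It rose 27.0-fold in neonatal cardiomyocytes against fibroblasts (adjusted p = 0.0424). With the replicate block, 0 of the modulators and reticulum genes were called between the neonatal cell types, where 0 of all 18193 genes were called as well. With the block, 3 were called between the ages (1 rose, 2 fell) and 21 between adult cardiomyocytes and fibroblasts (17 rose, 4 fell). The block called 607 and 4811 of all genes there, against 418 and 3829 in the main fit. Between the ages fewer than the 2 calls of the main fit remained with any single array left out, and fewer of all genes were called as well. For adult cardiomyocytes against fibroblasts the main fit had 17 calls in both lists. Fewer remained without adult replicate 1, adult replicate 2 or fibroblast replicate 1, and fewer of all genes were called there as well. The release channel Ryr2, to which calcium from Cacna1c is passed, rose 69.7-fold in adult cardiomyocytes against fibroblasts (adjusted p = 0.0145). Hrc, Trdn, Pln, Casq2 and Asph rose by 6.26, 5.85, 5.46, 4.87 and 4.55 log2 units there. On fibroblast replicates 1 and 2 Ryr2 measured 4.87 and 7.67, Trdn 4.42 and 7.52, Pln 7.39 and 9.88, and Casq2 6.27 and 8.99. The size of these differences thus depends on the fibroblast array, while Hrc had 5.69 and 5.93.

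The genes whose arrays ran most like each of the 6 were sought by Pearson correlation over the 6 arrays, among 2542 genes with an SD of at least 1. The points share arrays and groups, so these values only describe likeness. Cacna1c ran with Srpk3 (r = 0.998), a muscle protein kinase, and with Fgf13 (0.997), whose protein binds sodium channels. Slc8a1 ran with Snap91 (0.994), Tox3 (0.990) and the phosphofructokinase Pfkp (0.987), all highest in neonatal cardiomyocytes. Cacna1g ran with Spsb4 (0.994), Cobl (0.991) and Dusp27 (0.989), and Cacnb2 with Ddo (0.994), the connexin 43 gene Gja1 (0.993) and Cap2 (0.991). Cacna1h ran with Myh7 (0.990), the slow myosin of the fetal heart, with Tbx5 (0.988) and with Proser2 (0.987). Myh7 had 14.41 on neonatal cardiomyocyte replicate 1 and 9.70 on replicate 2, the same array contrast as Cacna1h. Hcn2 ran with Nr4a3 (0.988), Fmo2 (0.984) and Vtn (0.982), all highest on adult replicate 2. Among the 6 themselves, the closest were Cacna1g and Slc8a1 (r = 0.968) and Cacna1g and Cacnb2 (0.934), and the most distant were Hcn2 and Slc8a1 (−0.11).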

How the data were processed

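The deposited table holds log2 expression values of 45101 probe sets on 6 arrays, made by the authors with RMA per the submitters' processing notes (background correction, quantile normalization and summary of the probes of a set). Sources used here give no version of RMA, and it makes no detection call. Array medians lay between 5.60 and 5.67. Any 2 arrays held between 408 and 614 probe sets with exactly equal values, also across replicate numbers. By the annotation of the platform in GEO, 34945 probe sets had 1 gene; 932 with several genes, 64 controls and 9160 unnamed ones were left out of the gene tests. No gene was removed for low values.

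All 6 arrays entered a linear model of 3 group means in limma 3.58.1 (R 4.3.3, lmFit and eBayes, 3 residual and 2.18 prior degrees of freedom). The 3 differences were tested two-sided and adjusted by Benjamini-Hochberg over 18193 genes at 0.05. The fit was also run on simulated data with independent noise of equal spread in all groups. That simulation holds neither shared deviations of arrays nor a wider fibroblast pair, so it cannot test their effect. Arrays with the same replicate number deviated together from their group means (r across genes of 0.27, 0.21 and 0.18), so counts and calls that the replicate block changed are given beside the results. Precision is limited by having 2 arrays per group.

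The members, gene lists and promoter motifs were chosen with earlier results of these data known. Beside the 6 genes, the naming rule took listed relatives, modulators and sarcoplasmic reticulum genes past the threshold (at most 8 per comparison, by size of difference) and 3 most alike genes per member. Alternatives were the block, the titles' grouping, arrays left out, other uses of probe sets, a filter on dim genes, other scalings and an intensity trend.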

Additional observations from a re-analysis of the deposited data

How the results depend on the processing

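Of the 288 member differences recomputed under 16 alternatives per comparison, 235 kept their sign and their side of the threshold. Most member differences were not called in the main fit, so for many of these 235 that means staying uncalled. A call was lost in 27 and gained in 13, and the sign reversed in 13. With the groups that the titles give, 0 members were called in any comparison. There adult minus neonatal cardiomyocytes reversed to 0.26 for Cacna1g, 0.83 for Cacna1h, 1.99 for Cacnb2 and 0.17 for Slc8a1. Neonatal cardiomyocytes minus fibroblasts reversed to −1.33 for Cacna1c, −0.23 for Cacna1g, −1.03 for Cacna1h, −0.38 for Cacnb2 and −1.05 for Slc8a1, and adult cardiomyocytes minus fibroblasts to −0.20 for Cacna1h and −0.88 for Slc8a1. Between the neonatal cell types Casq1, Hrc and Cacna2d2 reversed to −0.39, −0.66 and −0.52. This follows from exchanging arrays of opposite markers. Hcn2 between the neonatal cell types, at 0.025, ranged from −0.054 (fibroblast replicate 2 left out) to 0.11 with single arrays left out, and was −0.029 when neonatal cardiomyocyte replicate 1 was omitted.

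For neonatal cardiomyocytes against fibroblasts, the 1 called member became 0 with the replicate block, without both disputed arrays, with only the 2 groups compared, with the mean of all probe sets or with all probe sets fitted. It became 2, Cacnb2 and Cacna1g, with genes under a mean of 5 left out, with median centring or with the intensity trend, and 0 to 3 with single arrays left out. For adult cardiomyocytes against fibroblasts, 3 called members became 0 without both disputed arrays (adjusted p from 0.0516 to 0.154) and 0 to 4 with single arrays left out. Between the ages 0 became 1, Slc8a1, with only the 2 groups compared, and 0 to 1 with single arrays left out. The replicate block changed no other member's call. For neonatal cardiomyocytes against fibroblasts the main fit called 149 of all 18193 genes. The block, the titles, the 2 groups alone and all probe sets fitted each called 0 of them, and the mean of all probe sets 59. The loss of the Cacnb2 call in these settings was thus not particular to that gene.

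Of the 36 relatives, 2 called between the ages became 1 with the titles, the 2 groups, all probe sets or the dim filter, 0 without the disputed arrays, and 0 to 1 with single arrays left out. The other comparisons had 0 to 1 of them (neonatal cell types) and 0 to 4 (adult cardiomyocytes against fibroblasts) with single arrays left out, and in the last 4 became 1 with the titles or without the disputed arrays. Without the disputed arrays Scn4b and Cacna1s were 3.53 and 1.89 between the ages (adjusted p = 0.124 and 0.158), and Hrc and Casq1 were 3.65 and −4.10 (both 0.124). Of the 38 modulators and reticulum genes, 2 between the ages became 0 with the titles or without the disputed arrays, 1 with the 2 groups, and 0 to 1 with single arrays left out. Between the neonatal cell types 2 became 0 with the block, the titles, the disputed arrays left out, the 2 groups or all probe sets, 1 with the mean of probe sets or quantile normalization, and 0 to 11 with single arrays left out. For adult cardiomyocytes against fibroblasts 17 became 0 with the titles, 11 without the disputed arrays, and 0 to 18 with single arrays left out. Where a group kept 1 array, that array was assumed to vary like the others. Between the ages the 418 calls over all 18193 genes became 114 with the titles and 164 with the 2 groups. For adult cardiomyocytes against fibroblasts 3829 calls over all genes became 137 with the titles. The order of group means held for all 6 members under quantile normalization, and for 3 with other probe sets taken: Cacnb2 kept it on its other probe set, Cacna1g and Hcn2 have none, and Cacna1c, Cacna1h and Slc8a1 each have 1 that differs. Quantile normalization turned 196 genes higher and 222 lower between the ages into 259 and 196. Where no construction shows it, the cause was not tested.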

Other observations

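Some relatives outside the naming rule had patterns of their own and are given as values, chosen after they were seen. Cacna2d2, another alpha-2-delta subunit of calcium channels, measured 5.12 and 5.33 in adult cardiomyocytes, 7.56 and 6.62 in neonatal cardiomyocytes, and 4.84 and 4.93 in fibroblasts. Its differences, −1.87 for adult minus neonatal cardiomyocytes and 2.20 for neonatal cardiomyocytes minus fibroblasts, narrowly missed the threshold (limma adjusted p = 0.0659 and 0.0647), while Cacna2d1 ran the other way between the ages (1.24, adjusted p = 0.0863). Fkbp1b, which encodes a partner of the release channel, measured 4.72 and 5.18 in adult cardiomyocytes, 6.27 and 6.46 in neonatal cardiomyocytes, and 6.61 and 6.19 in fibroblasts, and fell by 1.45 in adult cardiomyocytes against fibroblasts (adjusted p = 0.0201), the 1 gene of the reticulum list to do so.

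The adult arrays differed in 1 channel relative and 1 modulator given here. Scn7a, of the sodium channel family, measured 5.92 on adult replicate 1 and 8.38 on replicate 2, and Gem, a relative of Rrad, 6.13 and 8.39. On the same arrays the smooth muscle and pericyte marker median was 8.39 and 10.15 and the endothelial one 8.56 and 9.62. The fibroblast median was 7.80 and 9.40, the leukocyte one 6.62 and 8.01 and the atrial one 8.01 and 11.99. The conduction and pacemaker median was 5.54 and 5.93, the Schwann and neuron one 5.36 and 5.65 and the cardiomyocyte one 13.91 and 13.89. The part of other cells in these levels was not tested.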
